A study of Mus musculus with 6 samples.

Results

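The genes described here encode the retinoblastoma pocket proteins and the E2F transcription factors, the pair of families that decides whether a cell passes from G1 into S phase. They were chosen by name, as 10 of the 22544 genes in a table of gene expression in upper-layer cortical neurons of Swiss Webster mice. Postnatal day 5 (P5) was compared with postnatal day 3 (P3), with 3 biological replicates at P5 and 3 at P3, in a series whose title concerns the gradual arrival of neurons at a post-mitotic state. The cells had been labelled with green fluorescent protein (GFP) and sorted by fluorescence. How they came to carry GFP and how many mice stand behind a replicate is not stated in the labels. The labels name no treatment or mutation, and age is the only difference between the groups that they give.

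The 3 pocket proteins are RB (Rb1), p107 (Rbl1) and p130 (Rbl2). In their unphosphorylated form they bind E2F factors and silence the genes that E2Fs control. Cyclin-dependent kinases release the E2Fs by phosphorylating the pocket proteins, and p130 with E2F4 or E2F5 is the typical repressive complex of cells that have left the cycle. E2F1, E2F2 and E2F3 are classed as activators and bind mainly RB. E2F4 and E2F5 are classed as repressors that need a pocket protein. E2F6 and E2F8 repress without one, E2F6 through Polycomb proteins and E2F8 as an atypical factor that needs no DP partner. In mice, loss of Rb1 leads to ectopic divisions of young neurons.

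Members of the family are themselves among the genes that E2Fs control. Promoter windows from RefSeq (build GRCm38.p6), running from 250 bases before to 50 bases after a transcription start, were matched by symbol for 7 of the 10 genes, in 9 windows; Rb1, E2f4 and E2f5 had none. They were searched on both strands for the E2F words TTTCCCGC, TTTCGCGC, TTTGCCGC and TTTGGCGC. Such a word occurred in 3 of the 9 windows, against 2.27% of 32841 windows of all genes. The windows compared were not matched for GC content. It ran from 50.7% (Rbl2) to 78.7% (second E2f3 window) in the 9 windows, beside a median of 52.7% over all windows. The windows that hold one are shown because they put the element next to the start of 1 pocket protein gene and 2 activator E2F genes, with the word in capitals. In the Rbl1 window (chr2:157204485-157204784, minus strand) the word begins 18 bases before the start, in the first E2f3 window (chr13:29986014-29986313, minus strand) 11 bases before it and as the reverse complement, and in the first E2f2 window (chr4:136172024-136172323, plus strand) 39 bases after it.
Rbl1: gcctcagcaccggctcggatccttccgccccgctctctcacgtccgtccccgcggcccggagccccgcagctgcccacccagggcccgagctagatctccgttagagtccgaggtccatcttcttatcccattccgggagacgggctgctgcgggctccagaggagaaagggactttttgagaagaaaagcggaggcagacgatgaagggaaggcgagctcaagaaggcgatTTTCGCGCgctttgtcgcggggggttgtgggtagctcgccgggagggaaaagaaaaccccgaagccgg
E2f3: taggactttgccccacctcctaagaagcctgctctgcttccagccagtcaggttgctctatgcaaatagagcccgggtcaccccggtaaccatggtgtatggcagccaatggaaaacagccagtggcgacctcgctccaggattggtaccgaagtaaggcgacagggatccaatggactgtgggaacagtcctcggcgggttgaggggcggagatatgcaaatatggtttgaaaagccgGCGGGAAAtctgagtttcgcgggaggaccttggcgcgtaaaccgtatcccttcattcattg
E2f2: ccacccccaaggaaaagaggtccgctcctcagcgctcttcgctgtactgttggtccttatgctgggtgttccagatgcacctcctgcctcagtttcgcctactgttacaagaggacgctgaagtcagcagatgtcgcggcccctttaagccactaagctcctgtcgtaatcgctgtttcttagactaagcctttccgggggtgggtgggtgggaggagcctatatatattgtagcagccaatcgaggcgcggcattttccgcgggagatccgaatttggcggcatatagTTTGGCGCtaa
The cell cycle homology words TTTGAA and TTCGAA, which the DREAM complex of p107 or p130 with E2F4 or E2F5 and MuvB proteins uses, occurred in 4 of the 9 windows and in 19.2% of all windows, and none of them overlapped an E2F word. A match is only a match of letters. The start used for the E2f1 window lies 466 bases inside the GENCODE gene, so the sequence just before the first start of E2f1 was not searched. The start used for the first E2f2 window lies 120 bases before the GENCODE gene.

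All values are FPKM, fragments per length of transcript and per total of fragments, which allows levels of different genes to be set side by side. The table gives 1 pooled FPKM per age, so no value per replicate is shown, and depth is unknown. The error of each ratio was read from the authors' Cuffdiff statistic as a standard error (SE) of the log2 ratio of P5 over P3, and 95% intervals are 1.96 SE either side.

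No gene of the family differed between the ages at q = 0.05. All 10 had been tested by Cuffdiff, and the authors' deposited table calls 0 of 10, against a background of 0% of 12865 tested rows. At an unadjusted p under 0.05 it holds 0 of the 10, against 0.77% of tested rows (99). FPKM was higher at P5 for 6 genes and lower for 4, against 56.8% and 43.2% of all tested rows. Of the 9 genes with a ratio, 5 lay past 2-fold in either direction, against 33.9% of rows, with 4 higher at P5 (background 23.9%) and 1 lower (background 10%). In 0 of these 9 was the ratio larger than 1 SE. The SEs ran between 0.98 and 3.39 log2 units with a median of 1.85, against a median of 1.38 over all tested rows. In such bulk sorts, fewer cells of a type and less RNA per cell cannot be told apart.

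**Figure D1:**
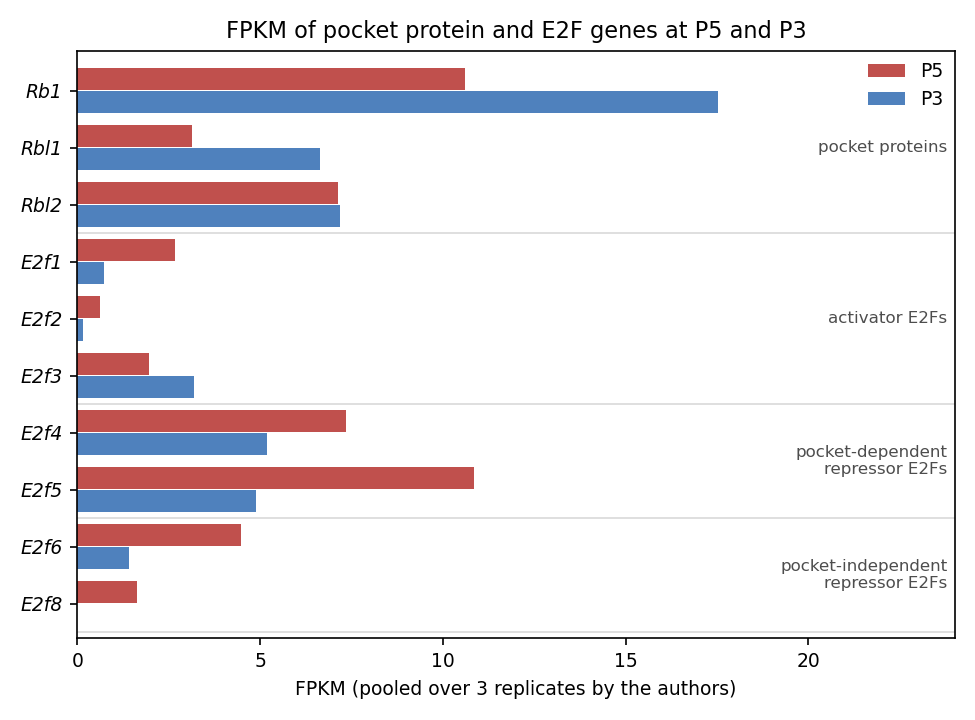
FPKM of the 10 genes (horizontal axis), with P5 above P3 for each gene and the genes grouped by class. Bars are the authors' pooled values and carry no error; Rb1 has the highest bar at P3 (17.5), E2f5 (10.9) and Rb1 (10.6) the highest at P5, and E2f8 has no bar at P3.

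Pocket proteins all had lower FPKM at P5, by amounts that differed among them. Rb1 (mm9 chromosome 14, 73595309 to 73725598), which encodes RB, the tumour suppressor that binds the activator E2Fs, had 10.6 FPKM at P5, against 17.5 at P3. The log2 ratio was -0.72 (SE 0.98, 95% interval -2.64 to 1.19; p = 0.46 in the authors' deposited table). This was the smallest error of the family, and the interval covers folds between 0.161 and 2.28. Rb1 was also the most abundant of the 3 at both ages, above 66.7% of tested rows at P5 and 78.6% at P3.

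Rbl1 (chromosome 2, 156971630 to 157030270), whose product p107 is typical of cycling cells and is itself under E2F control, had 3.14 FPKM at P5 and 6.63 FPKM at P3. Its log2 ratio of -1.08 was the most negative of the family (SE 1.85, interval -4.70 to 2.55; p = 0.56 in the authors' deposited table). Among 1164 tested rows within 1.2-fold of its mean FPKM, 26.8% had a larger ratio in either direction, so a ratio of this size was common at that level.

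Rbl2 (chromosome 8, 93593993 to 93659395) encodes p130, the pocket protein of resting cells. It was listed at 7.13 FPKM at P5 and 7.19 FPKM at P3, a log2 ratio of -0.01. Its SE of 3.39 was the widest of the family, against a median of 1.25 in rows of its level, and the interval ran between -6.65 and 6.63. The near-equal values therefore do not show that Rbl2 was the same at both ages. Rbl2 stood at 2.27 times the FPKM of Rbl1 at P5 and 1.09 times at P3.

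The deposited loci of Rb1 and Rbl2 each also carry another expressed gene. Lpar6, a lysophosphatidic acid receptor gene listed at the same locus as Rb1, had 5.87 FPKM at P5 and 2.07 at P3, opposite in direction to Rb1. Aktip shares the Rbl2 locus and had 81.2 FPKM at P5 and 132 at P3, far above Rbl2. Whether the libraries kept strand is not stated, so reads of such neighbours may not be separable, and their part in these values was not tested.

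Activator E2Fs differed in direction among themselves. Their summed FPKM at P5 (5.23) was the lowest of the 4 classes, close to that of the pocket-independent repressors (6.12). At P3 it was above that class, at 4.08 beside 1.43. This order of the classes was not tested. E2f1 (chromosome 2, 154385375 to 154395588), an E2F that drives S phase entry and can also trigger cell death, had 2.66 FPKM at P5 and 0.726 FPKM at P3. The log2 ratio was 1.88 (SE 2.22, interval -2.48 to 6.23; p = 0.40 in the authors' deposited table). Of 884 rows within 1.2-fold of its mean level, 65.5% had higher FPKM at P5 and 25.7% had a larger ratio in either direction. With a pseudocount of 1 FPKM the log2 ratio of E2f1 was 1.09.

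E2f2 (chromosome 4, 135728309 to 135751971), a second activator of S phase genes, was near the floor of the tested rows, at 0.614 FPKM at P5 and 0.162 FPKM at P3. These levels exceeded 5.88% of tested rows at P5 and 7.42% at P3. The log2 ratio of 1.92 had an SE of 2.90 (p = 0.51 in the authors' deposited table), and 59.3% of rows at that level had a larger ratio in either direction. With a pseudocount of 1 FPKM the log2 ratio of E2f2 was 0.47.

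E2f3 (chromosome 13, 29998444 to 30077932), the activator whose longer and shorter isoforms share this gene, had 1.95 FPKM at P5, against 3.19 at P3. Its log2 ratio of -0.71 (SE 1.30, interval -3.26 to 1.85; p = 0.59 in the authors' deposited table) was opposite in sign to those of E2f1 and E2f2. The values do not separate the isoforms. E2f3 made up 37.3% of the activators' summed FPKM at P5 and 78.2% at P3, and E2f1 50.9% at P5 and 17.8% at P3. Both genes with a shown E2F word in this class, E2f2 and E2f3, thus lay on opposite sides of 0, with Rbl1 on the side of E2f3.

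**Figure D2:**
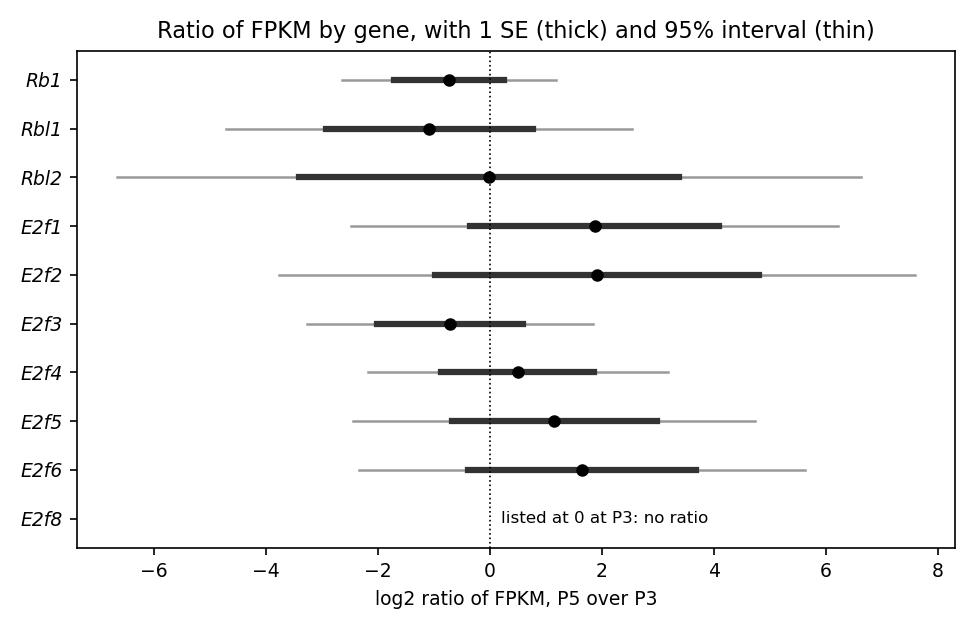
The log2 ratio of FPKM, P5 over P3 (horizontal axis), for each gene (rows), as a point with 1 SE (thick line) and the 95% interval (thin line). All 9 intervals include 0, from the narrowest, Rb1 (-2.64 to 1.19), to the widest, Rbl2 (-6.65 to 6.63), and E2f8 has no ratio. Of all tested rows, 0.77% had an unadjusted p under 0.05 in the authors' Cuffdiff test.

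Repressor E2Fs that need a pocket protein both had higher FPKM at P5. E2f4 (chromosome 8, 107821563 to 107829270), the main E2F of quiescent cells and a core part of the DREAM complex, had 7.34 FPKM at P5 and 5.20 FPKM at P3. The log2 ratio was 0.50 (SE 1.37, interval -2.18 to 3.18; p = 0.72 in the authors' deposited table). E2f5 (chromosome 3, 14578671 to 14611256), which pairs mainly with p130, had 10.9 FPKM at P5, the highest value of the family at that age, and 4.89 FPKM at P3.

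The log2 ratio of E2f5 was 1.15 (SE 1.83, interval -2.44 to 4.74; p = 0.53 in the authors' deposited table), and 18.7% of the 1188 rows of its level had a larger ratio in either direction. E2f5 stood at 1.48 times the FPKM of E2f4 at P5 and at 0.940 times at P3. Another row, 1810022K09Rik, shares the deposited locus of E2f5 and had 1.92 FPKM at P5 and 2.38 at P3, below E2f5 at both ages.

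Repressor E2Fs that act without a pocket protein were also listed higher at P5. E2f6 (chromosome 12, 16817771 to 16833558), which lacks the activation and pocket-binding region of other E2Fs and works with Polycomb proteins, had 4.49 FPKM at P5 and 1.43 FPKM at P3. The log2 ratio was 1.65 (SE 2.03, interval -2.33 to 5.63; p = 0.42 in the authors' deposited table). At its level 57.6% of rows had higher FPKM at P5 and 20.4% had a larger ratio in either direction.

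E2f8 (chromosome 7, 56121799 to 56136411), an atypical repressor that E2Fs induce in S phase, was at 1.63 FPKM at P5 and listed at 0 at P3. An FPKM of 0 can be a failed estimate, so no fold is given. Its p of 0.074 in the authors' deposited table was the lowest of the family and ranked 211 among the 12865 tested rows. Of 466 tested rows listed at 0 at P3, 24 had a lower p than E2f8, and 4 (0.858%) had an unadjusted p under 0.05. The 66 such rows within 1.2-fold of the P5 level of E2f8, itself included, had p-values between 0.0637 and 0.493 in the authors' deposited table, with a median of 0.143, so E2f8 lay near the low end of rows of its kind.

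**Figure D3:**
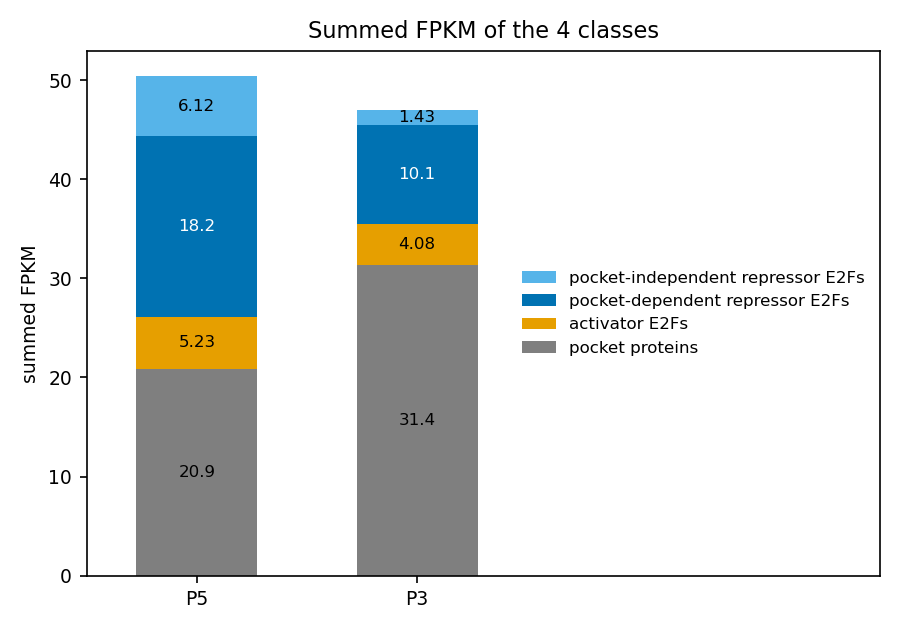
Summed FPKM (vertical axis) of the 4 classes, stacked, at P5 (left) and P3 (right), with each sum printed in its segment. Pocket proteins are the largest segment at both ages (20.9 at P5, 31.4 at P3), and the pocket-dependent repressors are 18.2 at P5 beside 10.1 at P3.

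By class, summed FPKM stood lower at P5 for pocket proteins and higher at P5 for each class of E2F. Pocket proteins summed to 20.9 FPKM at P5 and 31.4 at P3 (log2 ratio -0.59, SE 1.12 when the errors of the genes are taken as independent). Activator E2Fs summed to 5.23 FPKM at P5 and 4.08 at P3 (0.36, SE 1.11). Pocket-dependent repressors summed to 18.2 at P5 and 10.1 at P3 (0.85, SE 1.19). Pocket-independent repressors summed to 6.12 at P5 and 1.43 at P3 (2.10, SE 1.62, with E2f8 given the median SE of all tested rows). None of these class ratios was taken as a test, and only the last exceeded its SE, which it did not with a pseudocount of 1 FPKM per gene (1.24). Without genes whose locus overlaps another row, the pocket proteins, then Rbl1 alone, stood at -1.08 and the pocket-dependent repressors, then E2f4 alone, at 0.50, and without E2f3 the activators stood at 1.88.

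The balance between classes is seen in the ratios of these sums. Repressor E2Fs together had 4.65 times the FPKM of the activators at P5 and 2.82 times at P3. Pocket proteins had 3.99 times the FPKM of the activators at P5 and 7.69 times at P3. Pocket proteins over all 7 E2Fs stood at 0.707 at P5 and 2.01 at P3, and their share of the summed FPKM of all 10 genes was 41.4% at P5 and 66.8% at P3. At both ages the activators stood below E2f4 and E2f5 in sum. The total over the 10 genes was close at both ages, at 50.4 FPKM at P5 and 46.9 FPKM at P3. No error was computed for these ratios between classes, and their difference between the ages was not tested. The sums behind them had wide errors, with log2 ratios of P5 over P3 of -0.59 (SE 1.12) for pocket proteins and 0.92 (SE 0.82) for all 7 E2Fs. Rb1 and Rbl2, whose loci carry other expressed genes, are part of the pocket protein sum.

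Across single genes, the order at P5 was E2f5, Rb1, E2f4, Rbl2, E2f6, Rbl1, E2f1, E2f3, E2f8 and E2f2. At P3 it was Rb1, Rbl2, Rbl1, E2f4, E2f5, E2f3, E2f6, E2f1 and E2f2, with E2f8 last at 0. If each age carries an equal part of a gene's error, none of the 15 neighbouring pairs with an error stood further apart than 1 error, and the widest gap was 0.837 errors, for E2f1 over E2f2 at P3. Among pairs further apart in the order, Rb1 stood at 17.3 times E2f2 at P5 (1.90 errors) and 108 times at P3 (3.13 errors), and at 3.98 times E2f1 at P5 (1.16 errors) and 24.1 times at P3 (2.68 errors). Rb1 over E2f6 was 2.36 times at P5 (0.779 errors) and 12.3 times at P3 (2.27 errors). Rb1 over E2f3 was 5.43 times at P5 (2.12 errors) and 5.50 times at P3 (2.14 errors). The equal split of the error was not tested. SEs were wider at low FPKM, with a median of 3.37 in rows of the level of E2f2 and 1.09 at that of Rb1. E2f1, E2f2 and E2f6 had lower FPKM at P3 than at P5, so their gaps in errors at P3 may be overstated. With 1 pooled value per age, no gene of like pattern could be sought.

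**Figure D4:**
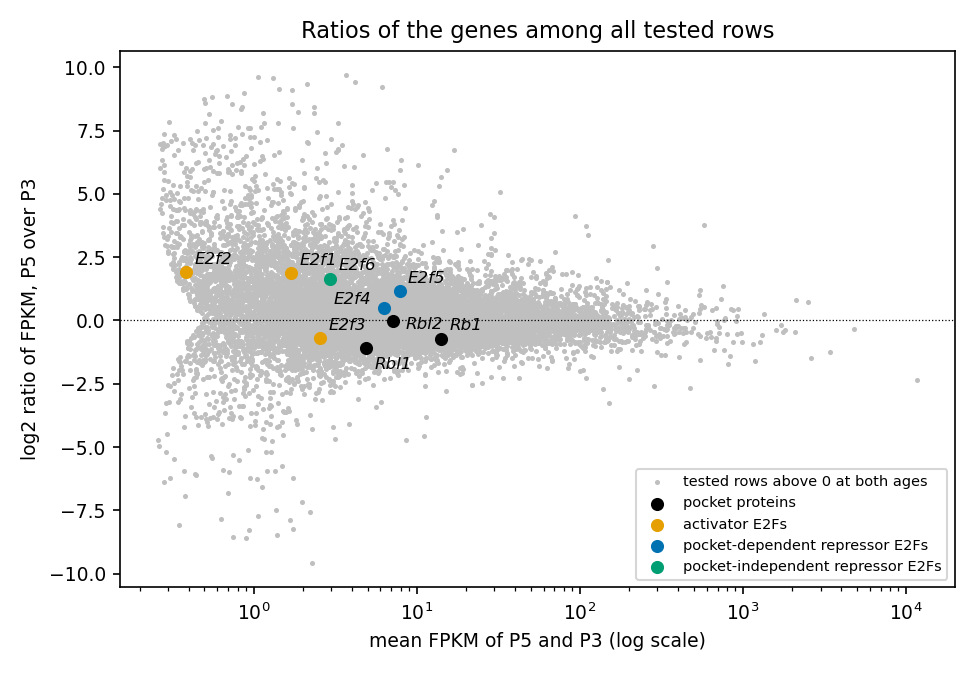
The log2 ratio of FPKM, P5 over P3 (vertical axis), against the mean FPKM of both ages on a log scale (horizontal axis), for 12313 tested rows above 0 at both ages (grey) and the 9 genes with a ratio (coloured by class). The genes lie inside the cloud of rows of their own level, which is wider at low FPKM.

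Genes that act with the family were read from 9 lists, and 0 genes of these lists passed the authors' test. DP proteins are the partners E2Fs need to bind DNA. Tfdp1 had 2.94 FPKM at P5 and 2.49 FPKM at P3 (log2 ratio 0.24, SE 1.74), and Tfdp2, with status FAIL and so not tested, had 3.61 FPKM at P5 and 1.58 at P3. The MuvB proteins bind p107 or p130 with E2F4 or E2F5 in the DREAM complex. Of 7 tested genes of that list 5 stood lower at P5 and the median log2 ratio was -0.66, beside 43.2% of all tested rows lower and a median of 0.13.

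The MuvB subunit gene Lin9 had 3.00 FPKM at P5 and 8.72 FPKM at P3 (-1.54, SE 1.37), and the subunit gene Lin54, whose product binds the cell cycle homology element, had 4.23 at P5 and 8.48 at P3. Lin37 had 9.02 at P5 and 13.8 at P3. Dyrk1a, whose kinase assembles the complex, had 42.3 FPKM at P5 and 67.0 at P3. The 2 tested genes of the list that stood higher at P5 were Rbbp4 and Foxm1. Rbbp4 had 12.5 FPKM at P5 and 8.67 at P3 (0.52, SE 1.09), and Foxm1 1.51 at P5 and 0.565 at P3 (1.41, SE 2.87). Mybl2, the MuvB partner of cycling cells, was low at 0.175 FPKM at P5 and 0.469 at P3 and was not tested.

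Kinases and cyclins that phosphorylate pocket proteins were lower at P5 in 7 of 9 tested genes (median log2 ratio -0.33). Cdk2, the partner of cyclins E and A, had 2.34 FPKM at P5 and 9.36 FPKM at P3 (p = 0.18 in the authors' deposited table). Ccna2 had 13.8 at P5 and 27.6 at P3, and Ccne1 1.18 at P5 and 3.08 at P3. Cdk4 was abundant at both ages, at 116 FPKM at P5 and 120 at P3, whereas Cdk6 had 1.10 at P5 and 0.613 at P3. Among inhibitors of these kinases, 2 of 4 tested genes were lower and 2 higher, with a median of -0.42; Cdkn1c had 20.8 FPKM at P5 and 67.3 at P3, Cdkn1b 40.1 at P5 and 78.1 at P3, and Cdkn2a and Cdkn2d were listed at 0 at both ages.

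Among chromatin partners of E2F6, lower values at P5 were the more common. Of 13 tested, 11 stood lower at P5 (median -0.46, and -0.28 with genes of at least 1 FPKM at either age), while E2f6 itself had its higher value at P5. Rnf2, the catalytic subunit of Polycomb complex PRC1, had 54.9 FPKM at P5 and 75.5 at P3. Of the genes of PRC2, Ezh2 had 21.2 FPKM at P5 and 35.6 at P3, and Eed 10.2 at P5 and 27.6 at P3. Corepressors that pocket proteins recruit were nearer the middle, with 9 of 16 lower and a median of -0.14. Among them the chromatin remodeller Smarca2 had 79.6 FPKM at P5 and 139 at P3, the deacetylase Hdac2 56.3 at P5 and 71.0 at P3, and the RB-binding Arid4b 14.9 at P5 and 30.6 at P3.

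Target genes were read in 3 lists. Of 43 tested G1/S targets of E2F, 28 stood lower and 15 higher at P5 (median -0.35); 6 genes of this list stand in another list too. Uhrf1, which keeps DNA methylation through replication, had 1.52 FPKM at P5 and 21.2 at P3, and its p of 0.0078 in the authors' deposited table was the only unadjusted p under 0.05 in the 9 lists. The histone chaperone gene Chaf1a had 1.63 FPKM at P5 and 6.92 at P3, and the ribonucleotide reductase gene Rrm1 25.9 at P5 and 27.1 at P3.

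G2/M targets of DREAM had a median of 0.23, with 17 of 29 tested genes (58.6%) higher at P5. Both lay near the values of all tested rows, a median of 0.13 and 56.8% higher. The checkpoint kinase gene Bub1b had 4.30 FPKM at P5 and 0.491 FPKM at P3, Aurkb 10.2 at P5 and 1.59 at P3, and the topoisomerase gene Top2a 22.1 at P5 and 28.9 at P3. Targets with roles outside the cycle were evenly split, with 5 of 10 higher and a median of 0.21. The deacetylase gene Sirt1 had 6.21 FPKM at P5 and 6.52 at P3, and the death gene Pmaip1 0.0387 at P5 and 2.38 at P3. The difference between the G1/S and G2/M lists was not tested.

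**Figure D5:**
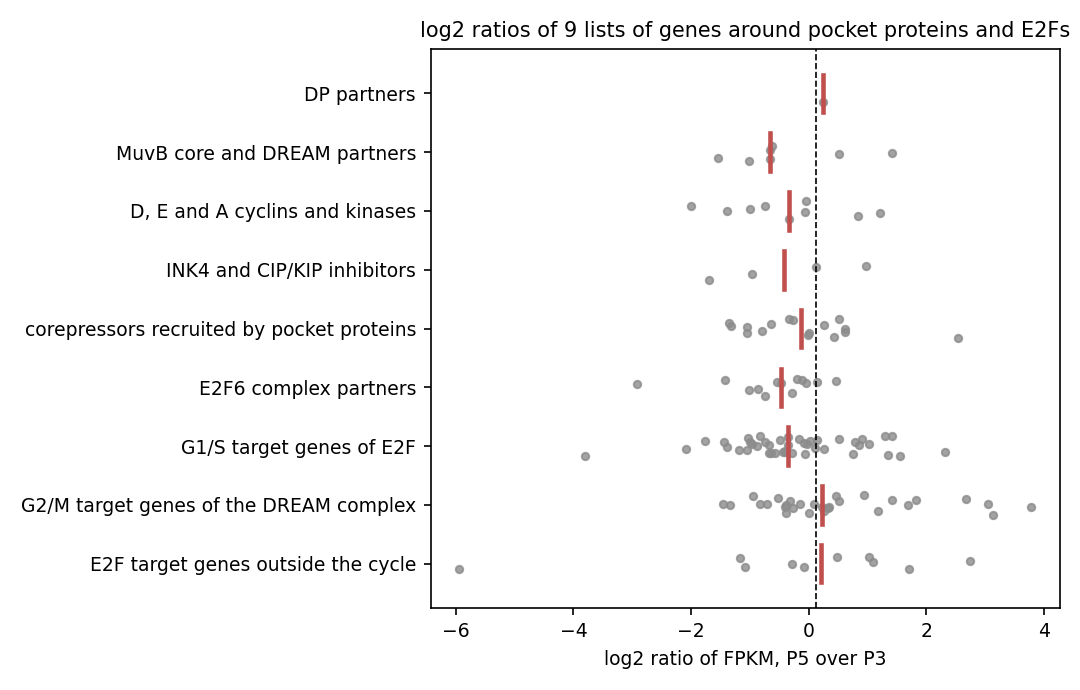
The log2 ratio of FPKM, P5 over P3 (horizontal axis), for the tested genes of 9 lists (grey points) with each list's median (red bar) and the median of all tested rows (dashed line, 0.13). The medians of the G1/S targets (-0.35), the E2F6 partners (-0.46) and the MuvB list (-0.66) lie left of the dashed line. That of the G2/M targets (0.23) lies near it, to its right.

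Markers of other cell types were measured in the same sorts, and for most types their FPKM was higher at P5. Upper-layer markers were present, with Rorb at 152 FPKM at P5 and 119 at P3 and Mef2c at 226 at P5 and 156 at P3, though Cux2 was low at 1.99 at P5 and 1.87 at P3. In sum they had 496 FPKM at P5 and 505 at P3, with 5 of 11 higher at P5, and 6 of 6 tested pan-neuronal markers were higher. Microglia markers were higher at P5 in 13 of 13 tested (summed FPKM 190 at P5 and 25.5 at P3, Itgam at 0 at P3), and endothelial and mural markers in 11 of 12 (53.0 at P5 and 5.31 at P3, with Tek and Tie1 at 0 at P3 and Ly6c1 at 0 at both ages). Oligodendrocyte lineage markers were higher in 13 of 13 (336 at P5 and 152 at P3, Mag and Mog at 0 at P3), astrocyte markers in 11 of 12 (2480 at P5 and 1588 at P3, none at 0) and interneuron markers in 8 of 12 (844 at P5 and 712 at P3). Of erythroid markers, Hbb-b2 and Alas2 were tested and both were higher at P5, the list summing to 71.6 FPKM at P5 and 2.62 at P3, with Gata1, Epb4.2 and Hba-a2 at 0 at both ages. Progenitor markers were lower at P5 in 9 of 11 (5166 at P5 and 6663 at P3). With 2 ages, any gene higher at P5 goes with all of these higher lists alike, neuronal and non-neuronal, and any gene lower at P5 with the progenitor list. The part of these cells in the values of the pocket proteins and E2Fs was not tested.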

How the data were processed

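RNA sequencing was done on 3 samples at P5 and 3 at P3. The submitters' processing notes name TopHat, Cuffdiff 2.02 and mm9, without roles. The authors deposited 1 table of FPKM per age, pooled over replicates, and, per gene, the log2 ratio, Cuffdiff's statistic, its p-value and q-value. The deposited log2 ratio and statistic were handled as scores, since both hold a placeholder where 1 age is at 0. Of 22544 rows, 12865 had status OK and 12313 of them FPKM above 0 at both ages.

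Calls are the authors' Cuffdiff q at 0.05. The deposited p matched a two-sided normal p of the statistic within 2.8e-06. The SE was taken as the size of the log2 ratio over that of the statistic, which assumes that the statistic is this ratio over its error. The step was tested on simulated data, which cannot show how Cuffdiff formed its statistic. It gave very large SEs for some genes, such as 142 log2 units for Bub1 and 49.7 for Kif20a. Nothing says how the replicates were obtained beyond their being biological. Lists are described by counts and medians, over status OK rows. The 10 genes, the lists and the rule for naming genes (all 10; the DP, MuvB and cyclin lists freely; elsewhere the 2 highest and the 2 lowest p of a list at 1 FPKM or more) were chosen with earlier results of these data known. Some genes that the rule names are not reported here. Lpar6, Aktip and 1810022K09Rik are named because they share a locus, Cdkn2a, Cdkn2d, Cux2 and markers at 0 for their values, and Bub1 and Kif20a for their SEs. Locus starts on mm9 were taken as 0-based and raised by 1: among 20141 genes, end minus deposited start equalled the GENCODE M21 length in 2634 and was 1 short in 437. Python 3.11.15, pandas 2.3.3, SciPy 1.17.1 and matplotlib 3.10.9 were used.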

Additional observations from a re-analysis of the deposited data

How the results depend on the processing

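The count of 0 genes called stayed 0 with q at 0.01, with Bonferroni adjustment, with a minimum log2 ratio of 1 and with rows of at least 1 FPKM at either age (lowest q then 1). Ratios of single genes kept their sign under all 27 combinations of gene and alternative (pseudocounts of 1 and 0.1 FPKM, centring on the median of all tested rows), but 3 sizes moved by over 1.5 times: with a pseudocount of 1 FPKM, E2f1 stood at 1.09 beside 1.88 and E2f2 at 0.47 beside 1.92, and with centring Rbl2 stood at -0.14 beside -0.01. Sums of the 4 classes kept their sign in all 21 combinations, with larger moves in each class. The activator E2Fs, at 0.36 as a sum, stood at 1.88 as the median of their ratios, at 1.88 without E2f3, which has the highest mean FPKM of both ages, at 0.22 with the pseudocount, at 0.24 with genes of at least 1 FPKM and at 0.23 centred. The pocket proteins stood at -1.08 beside -0.59 without genes that overlap another row, which leaves Rbl1. The pocket-dependent repressors stood at 0.50 beside 0.85 without E2f5, by either rule that drops it. The pocket-independent repressors stood at 1.24 beside 2.10 with the pseudocount. List medians kept their sign in 71 of 72 combinations. The E2F targets outside the cycle had -0.15 as a mean and 0.21 as a median, and the cause was not tested. Sizes of some list medians moved by over 1.5 times. That of the E2F6 partners stood at -0.28 beside -0.46, both with genes of at least 1 FPKM and with the pseudocount of 1 FPKM. Leaving out single replicates was not run, since the table holds pooled values. No paired analysis was possible because the deposited values are pooled over replicates and carry no replicate number. Without counts, depth sets no limit that can be stated, and intervals several log2 units wide leave changes of that size undetectable by this test.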
